A study of Mus musculus with 16 samples.

Results

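LINE1 elements are retrotransposons that occur in very many near-identical copies of the mouse genome, and their CpG sites carry methylation that restrains their transcription. UHRF1 maintains such methylation: it binds hemimethylated CpG sites at replication forks, ubiquitinates histone H3 through its RING domain and thereby recruits the maintenance methyltransferase DNMT1. The ubiquitin-like (UBL) domain of UHRF1 assists its ligase activity, which is the question named in the title of the series. H730A changes a residue of the RING domain and F46A a residue of the UBL domain.

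The sites described here are the CpGs 10, 17 and 21 bp downstream of the first CpG of a LINE1 amplicon, where few reads were methylated in wild-type cells. They were chosen in 3 steps. Sites needed 10 calls or more in each of the 16 libraries, a call being 1 read of C or T at that cytosine. Sites on the same strand of a chromosome no more than 200 bp from the next made up a run, and of 753 runs those with the most common distance from first to last CpG were kept. The members are the sites at offsets 10, 17 and 21 bp along the strand of the run. This gave 939 sites of 10185 that passed the coverage minimum and of 49722 listed in any library. There were 156 sites at offset 10, 328 at offset 17 and 455 at offset 21, in 512 of the 516 runs of that length. The offsets were picked because their level was low in wtJ1, so levels in wtJ1 and differences from it are given as a description without a test.

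The 4 groups were mouse embryonic stem cells (mESCs) that carry Uhrf1_F46A, mESCs that carry Uhrf1_H730A, mESCs labelled Uhrf1 KO, which lack UHRF1, and the parental wild-type line wtJ1. All came from J1 cells of strain 129S4/SvJae and were cultured with serum, LIF and 2i, a pair of kinase inhibitors that holds stem cells in a naive state. Each group had 4 libraries, described as biological quadruplicates. The sources used here do not say whether a group is 1 clone or several, so p-values measure the spread between these samples, which may be technical. The reads hold no part of Uhrf1, and the genotypes could not be checked in them.

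After bisulfite conversion an unmethylated cytosine is read as T, and the methylation level is the share of calls read as C. Libraries held between 998982 and 1287040 calls, of which 89444 to 112604 fell on the 939 sites. The median member site had 61 to 77 calls per library and the least covered had 10. No molecular identifiers marked the PCR reads, so intervals and limits based on calls cover counting error only. wtJ1 libraries 1 and 2, and likewise 3 and 4, showed no difference past 0.05 in 4 chi-square comparisons of their calls in these runs (lowest unadjusted p = 0.0528 for 1 and 2 and 0.173 for 3 and 4). This does not show that the libraries are alike, and libraries 1 and 2 lay just above the limit. Each pair was averaged and counted as 1 sample, which gives n = 2 for wtJ1 in means and SDs; this was decided after the data were seen. Uhrf1 KO libraries 2 and 3 also met this criterion (lowest unadjusted chi-square p = 0.0632) but were kept as separate samples, so it was not applied evenly. In methylation per offset 5 of the 6 Uhrf1 KO pairs showed no difference past 0.05, against 2 of 6 in wtJ1 and 0 of 6 in F46A and in H730A. Tests with 4 Uhrf1 KO samples take these libraries as independent, which was not shown. Tests with Uhrf1 KO libraries 2 and 3 averaged are given beside the results they change.

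The 3 positions lie close together. Offset 10 is 10 bp after the first CpG of the run and 7 bp before offset 17, which is 4 bp before offset 21, and the next CpG follows 5 bp further on at offset 26. Few runs held all of them. Of the 516 runs, 243 held the sites at 17 and 21 alone, 114 those at 10 and 21, 64 only the site at 21, 49 only that at 17, and 34 all 3. A run without a member had no line at that position in any library, whatever the coverage. Runs with a CpG at offset 10 had one at offset 17 in 23.1% of cases, against 81.1% of runs without a CpG at offset 10. Offset 21 was occupied in 88.2% of all runs. It was more frequent beside offset 10, in 94.9% of runs with that CpG against 85.3% without it. Beside offset 17 it was less frequent, in 84.5% of runs with that CpG against 94.7% without it.

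The label of these sites as low in wild type was checked against the other positions. Among the 14 offsets held by at least 30 runs, offset 17 was the lowest in wtJ1, offset 10 the 3rd lowest and offset 21 the 5th lowest. The neighbouring offset 26, which is not a member, had 17.2% ± 0.337 in wtJ1 (SD, n = 2), next to 17.3% ± 0.0376 at offset 10. Offset 45 had 21.4% ± 0.275, just under the 21.9% ± 0.234 of offset 21. Of the members, offset 17 alone was thus set apart from all non-members, and 10 and 21 share their range with other CpGs of the amplicon.

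Offset 10 had 3.65, 3.78, 2.21 and 3.86% methylated calls in the 4 F46A libraries, 5.64, 5.49, 6.44 and 4.94% in H730A, 2.92, 3.03, 3.32 and 2.84% in Uhrf1 KO and 17.5, 17.2, 17.6 and 17.1% in wtJ1. Every H730A library lay above every Uhrf1 KO and F46A library, and every wtJ1 library lay above all mutants. F46A overlapped Uhrf1 KO, with 3 of its libraries above that whole group and 1 below it. The means were 3.38% ± 0.782 in F46A, 5.63% ± 0.620 in H730A and 3.03% ± 0.211 in Uhrf1 KO (SD, n = 4 each), and 17.3% ± 0.0376 in wtJ1 (SD, n = 2).

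Offset 17 had 2.64, 1.97, 2.07 and 2.9% in F46A, 3.11, 2.98, 3.82 and 2.57% in H730A, 2.42, 2.48, 2.63 and 2.56% in Uhrf1 KO and 10.4, 10.4, 10.7 and 11.2% in wtJ1. Here the 3 mutants ran into each other, and 3 of the 4 H730A libraries exceeded every Uhrf1 KO library. The means were 2.39% ± 0.448 in F46A, 3.12% ± 0.524 in H730A and 2.52% ± 0.0932 in Uhrf1 KO (SD, n = 4 each), against 10.6% ± 0.368 in wtJ1 (SD, n = 2).

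Offset 21 had 4.45, 4.47, 3.07 and 5.01% in F46A, 6.30, 6.30, 7.09 and 5.39% in H730A, 3.90, 3.81, 4.05 and 3.84% in Uhrf1 KO and 21.6, 21.8, 22.1 and 22% in wtJ1. The order was that of offset 10: H730A lay above both other mutants without overlap, and F46A spread around Uhrf1 KO. The means were 4.25% ± 0.830 in F46A, 6.27% ± 0.696 in H730A and 3.90% ± 0.107 in Uhrf1 KO (SD, n = 4 each), against 21.9% ± 0.234 in wtJ1 (SD, n = 2).

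**Figure D1:**
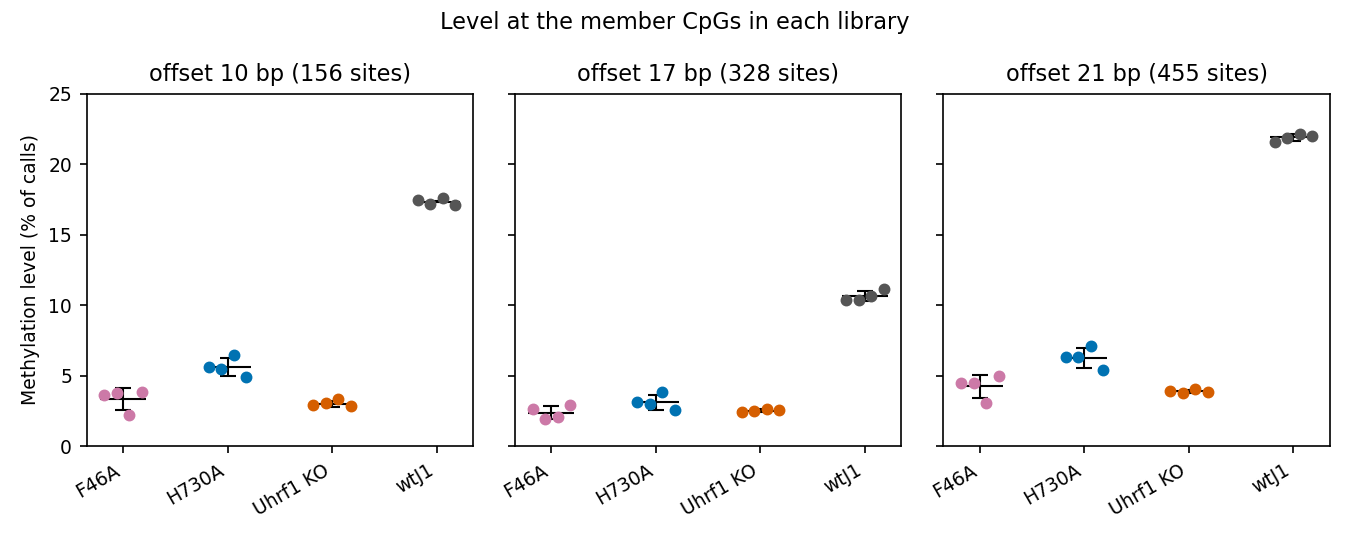
Methylation level (percent of calls read as C) at offsets 10, 17 and 21 bp in each library of F46A, H730A, Uhrf1 KO and wtJ1, 1 point per library, with the mean as a line and 1 SD as bars (n = 4, for wtJ1 n = 2 averaged pairs). The wtJ1 libraries stand far above all mutants at each offset, while H730A clears Uhrf1 KO at offsets 10 and 21 and touches it at offset 17, where the H730A libraries span 2.57 to 3.82%.

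All 3 mutants kept a small share of the wild-type level, given here as a description since wtJ1 chose the offsets. At offset 10 F46A kept 19.5%, H730A 32.5% and Uhrf1 KO 17.5% of it. At offset 17 the shares were 22.5% in F46A, 29.3% in H730A and 23.7% in Uhrf1 KO, so among the members the mutants differed least there. At offset 21 they were 19.4% in F46A, 28.6% in H730A and 17.8% in Uhrf1 KO. Some non-members had closer shares than offset 17, such as offset 41 (24.4% in F46A, 28.6% in H730A, 28.8% in Uhrf1 KO) and offset 45 (36.8, 38.5 and 40.7%). At the CpGs that flank the members the spread between mutants was wider. The first CpG of the run kept 11.3% in F46A, 32% in H730A and 4.65% in Uhrf1 KO, and offset 26 kept 17.4% in F46A, 35% in H730A and 5.40% in Uhrf1 KO. In absolute level Uhrf1 KO had 1.08% ± 0.0641 at the first CpG and 0.929% ± 0.0282 at offset 26 (SD, n = 4), below its level at any member, although wtJ1 had 23.2% ± 0.629 at the first CpG (SD, n = 2), above any member.

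**Figure D2:**
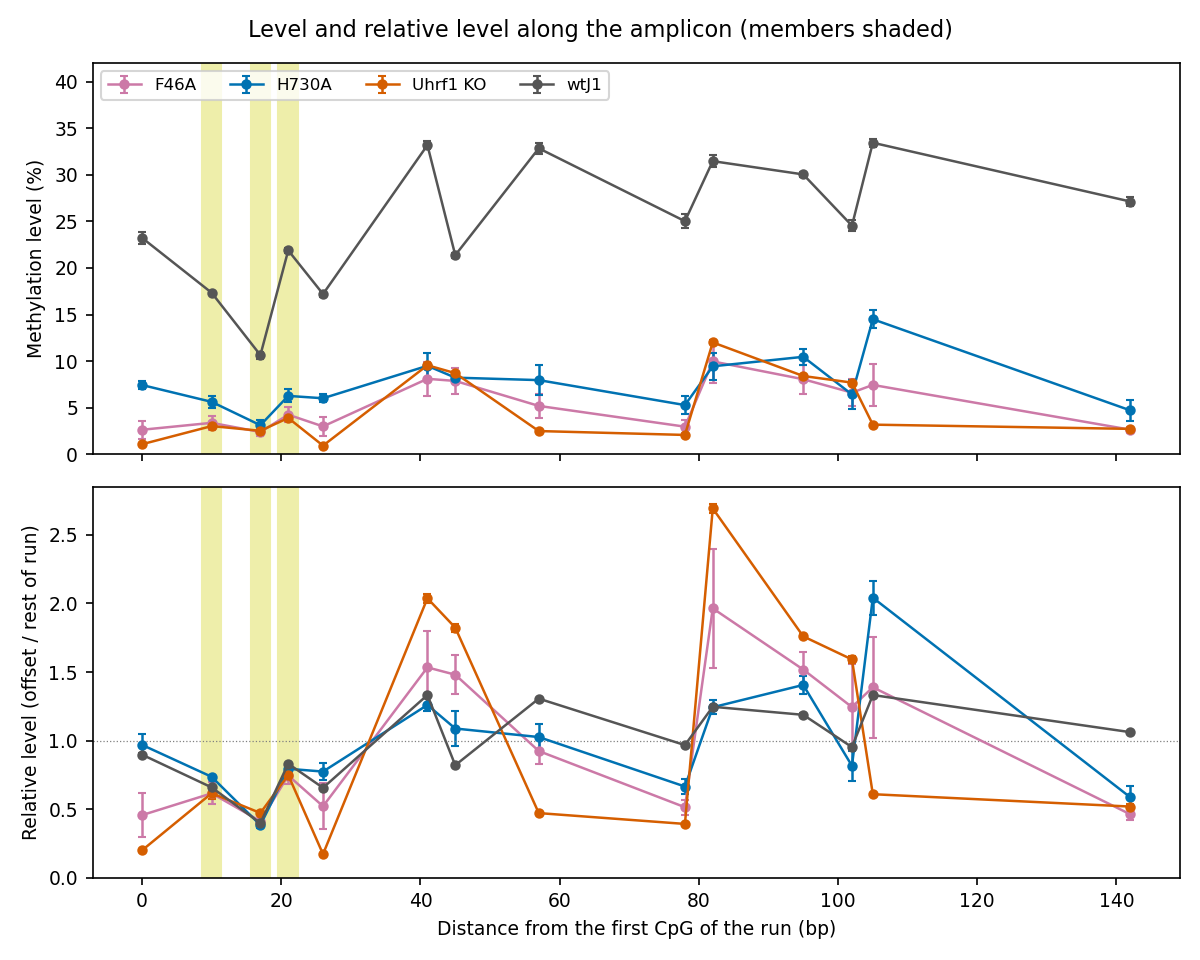
Methylation level (percent, upper panel) and level relative to the rest of the same runs (ratio, lower panel) against the distance from the first CpG of the run in bp, for F46A, H730A, Uhrf1 KO and wtJ1, as mean and 1 SD (n = 4, for wtJ1 n = 2), with the member offsets shaded. Offset 17 is the trough of the wtJ1 line at 10.6%, and the mean relative level of the 4 genotypes runs from 0.384 to 0.472 there, against 0.201 to 0.969 at the first CpG.

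H730A against Uhrf1 KO asks how much methylation a UHRF1 protein with a mutated RING domain leaves over its absence. H730A rose above Uhrf1 KO at offset 10 by 2.60 percentage points (95% interval 1.62 to 3.6) and at offset 21 by 2.37 points (1.34 to 3.28). Both passed an exact two-sided permutation test of 4 against 4 libraries, each with p = 0.0286, the smallest this design allows, and adjusted p = 0.0400 over the 14 offsets. At offset 17 the difference was 0.600 points (−0.0650 to 1.41), which did not pass (exact permutation test, p = 0.0571, adjusted p = 0.0727). The pattern is shared along the amplicon, since 64.3% of the 14 offsets passed in the same direction and 7.14% in the opposite one. The fold of H730A over Uhrf1 KO was 1.86 at offset 10, 1.24 at offset 17 and 1.61 at offset 21, against 6.88 at the first CpG and 6.48 at offset 26. These flanking CpGs had the largest folds of the 14 offsets. The other non-members ranged from 0.786 at offset 82 to 4.56 at offset 105. Pooled over sites, the fold was 1.517 at the members and 1.524 at the other sites of the runs. With the nearly alike Uhrf1 KO libraries 2 and 3 averaged, a choice added after the data were seen, the 3 Uhrf1 KO samples could not reach an adjusted p under 0.05 (2.65 points at offset 10 and 2.38 points at offset 21, adjusted p = 0.0727 each, exact permutation test). At offset 17 the difference was 0.365 points without H730A library 3, the highest of its group, whereas it passed in limma on logit levels (adjusted p = 0.0243) and with sites weighted equally (0.723 points, adjusted p = 0.0364, exact permutation test).

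F46A was not told apart from Uhrf1 KO at any member. The differences were 0.346 points (95% interval −1.11 to 1.02) at offset 10, −0.128 points (−0.663 to 0.479) at offset 17 and 0.351 points (−0.983 to 1.2) at offset 21. Exact permutation p-values were 0.457, 0.543 and 0.486 in that order, with adjusted p of 0.618, 0.633 and 0.618. Each interval includes 0. With 1 library left out the difference ranged from 0.184 to 0.735 points at offset 10 and from 0.0978 to 0.746 points at offset 21, highest without F46A library 3 and lowest without F46A library 4 at both, and at offset 17 from −0.296 points without F46A library 4 to 0.0131 points without F46A library 2. None of the 14 offsets passed for this pair, 0.0% in either direction, although 28.6% of them lay higher in F46A without overlap of libraries. Those had the smallest possible p of 0.0286, with adjusted p = 0.1 (exact permutation test). The members were not among the offsets without overlap. In limma on logit levels the members did not pass either (adjusted p = 0.712 each). The first CpG and offsets 26, 57, 78 and 105 did pass there, all higher in F46A, with limma adjusted p from 3.87e-11 at offset 26 to 0.0467 at offset 78. F46A was thus not shown to equal Uhrf1 KO along the amplicon.

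F46A lay below H730A at offset 10 by −2.25 points (95% interval −4.23 to −1.08) and at offset 21 by −2.02 points (−4.02 to −0.377), with no overlap of libraries at either. Neither passed after adjustment over the 14 offsets (exact permutation test, p = 0.0286 and adjusted p = 0.0571 for each). This unadjusted p is the smallest possible and the same as for H730A against Uhrf1 KO at these offsets. The adjusted p then depends on how many of the 14 offsets reach it. Passing in one comparison and not in the other is therefore no difference in evidence at these members. At offset 17, where 2 F46A libraries were under every H730A library, the difference was −0.728 points (−1.86 to 0.331; exact permutation test, p = 0.0857, adjusted p = 0.120). Of the 14 offsets 50.0% were lower in F46A without overlap and 0.0% passed. Offsets 10 and 21 passed in limma on logit levels (adjusted p = 0.00171 and 0.0162) and with sites weighted equally (adjusted p = 0.0444 each, exact permutation test).

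**Figure D3:**
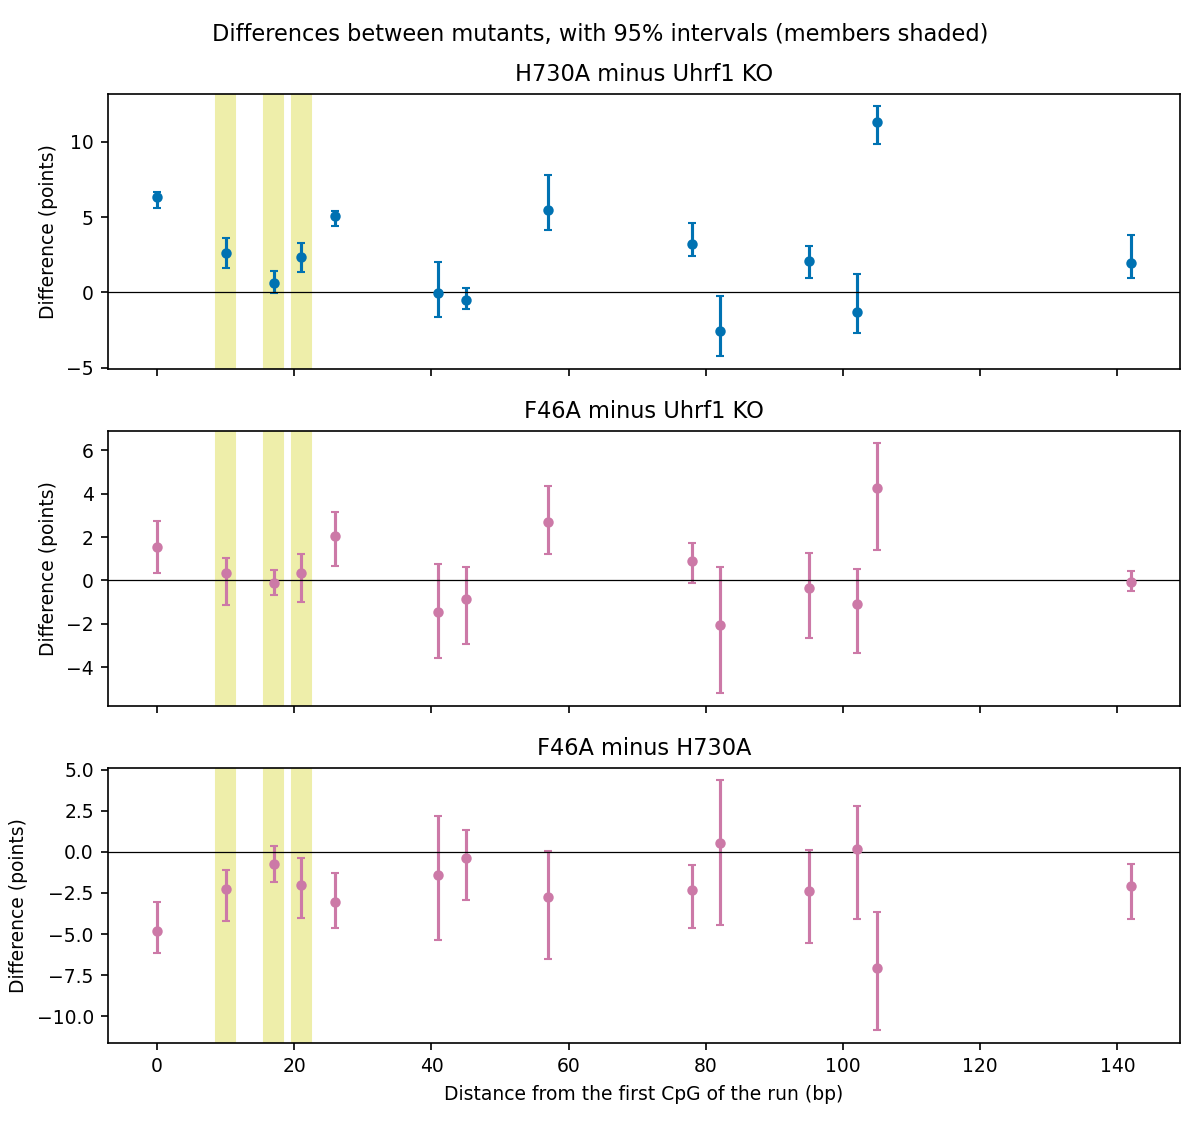
Difference in methylation level in percentage points at each of the 14 offsets, against the distance from the first CpG in bp, for H730A minus Uhrf1 KO, F46A minus Uhrf1 KO and F46A minus H730A, with 95% intervals from inverting the exact permutation test and the members shaded. H730A exceeds Uhrf1 KO by 2.60 points at offset 10 and 2.37 points at offset 21, while the interval at offset 17 includes 0, as do all member intervals of F46A minus Uhrf1 KO.

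Whether a position moved more or less than its amplicon was read from the relative level, which is the level at the offset divided by the level of the same runs at all their other offsets. At offset 17 it was 0.438, 0.352, 0.452 and 0.411 in F46A, 0.397, 0.369, 0.411 and 0.361 in H730A, 0.460, 0.462, 0.484 and 0.485 in Uhrf1 KO and 0.393, 0.396, 0.393 and 0.411 in wtJ1. Uhrf1 KO was highest throughout: offset 17 stood higher relative to the rest of its runs without UHRF1 than in any other genotype. It was lower in H730A than in Uhrf1 KO by −0.0881 (95% interval −0.123 to −0.0493; exact permutation test, p and adjusted p = 0.0286) and lower in F46A than in Uhrf1 KO by −0.0592 (−0.132 to −0.00760; exact permutation p = 0.0286, adjusted p = 0.0400). F46A and H730A differed by 0.0289 (−0.0583 to 0.0910; adjusted p = 0.314, exact permutation test). The relative level of offset 17 was higher in Uhrf1 KO than in wtJ1 by 0.0740, as a description.

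At offset 10 the relative level was 0.656, 0.703, 0.521 and 0.584 in F46A, 0.756, 0.726, 0.719 and 0.743 in H730A, 0.601, 0.634, 0.665 and 0.566 in Uhrf1 KO and 0.661, 0.663, 0.660 and 0.652 in wtJ1. H730A stood above the other 3 genotypes without overlap. It was higher than Uhrf1 KO by 0.120 (95% interval 0.0542 to 0.191; exact permutation test, p and adjusted p = 0.0286). F46A was lower than H730A by −0.120 (−0.236 to −0.0158; exact permutation p = 0.0286, adjusted p = 0.0667) and differed from Uhrf1 KO by −0.000823 (−0.144 to 0.137; exact permutation p = 1). At offset 21 the relative level averaged 0.746 ± 0.0584 in F46A, 0.795 ± 0.0218 in H730A and 0.749 ± 0.0163 in Uhrf1 KO (SD, n = 4 each), and 0.832 ± 0.00533 in wtJ1 (SD, n = 2). H730A was higher than Uhrf1 KO by 0.0452 (0.0120 to 0.0961; exact permutation test, p and adjusted p = 0.0286), and F46A differed from Uhrf1 KO by −0.00374 (−0.0797 to 0.0955; adjusted p = 0.985, exact permutation test).

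These tests do not set the members apart from the other CpGs. Between H730A and Uhrf1 KO the relative level passed at all 14 offsets, 57.1% higher and 42.9% lower, and between F46A and Uhrf1 KO at 35.7% in each direction. These calls were lost with Uhrf1 KO libraries 2 and 3 averaged, where 3 samples against 4 allow no smaller adjusted p than 0.0571. With sites weighted equally the H730A call at offset 10 was lost (0.110, adjusted p = 0.0615, exact permutation test), that at offset 21 was 0.0281 (adjusted p = 0.171) and the F46A difference at offset 17 was −0.0568 (adjusted p = 0.0727, exact permutation test). In the 34 runs with all 3 members, where calls are few, the H730A difference at offset 17 was −0.0843 (adjusted p = 0.133, exact permutation test) and that of F46A −0.0151 (adjusted p = 0.800).

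Single sites were compared with a quasi-binomial model over all 10185 sites, with limma's moderated dispersion and adjustment over all of them. Of the 939 members, 54 rose in H730A over Uhrf1 KO and 1 fell. That is 5.75% and 0.106% of the members, against 21.4% higher and 0.785% lower among all tested sites. The lower call was at offset 21. With 1 of the 8 libraries left out, 1 member at offset 21 was called lower without Uhrf1 KO library 4, 1 member at offset 17 without H730A library 3, and 0 without any of the other 6. By position, 11 sites at offset 10 rose (7.05%), 5 at offset 17 (1.52%) and 38 at offset 21 (8.35%). The share of members called is below the share of all sites at each offset. Members also had lower levels than all tested sites, with 3.24% against 4.95% in Uhrf1 KO. As a fold of H730A over Uhrf1 KO the rise was alike, 1.517 over the members and 1.505 over all tested sites. The median difference over the members was 1.4 points, against 2.21 points over all sites, and 741 members were above 0 and 193 below. Without H730A library 3 the count of members higher in H730A was 32, against 1575 of all 10185 sites. With a minimum of 30 calls it was 100 of 730 members, against 2269 of 7233 sites.

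F46A against Uhrf1 KO gave no call in either direction among the members in this model, as among all sites (0.0% each). At an unadjusted p under 0.05 there were 15 of the 939 members higher and 11 lower. No count over all sites was made at this limit, so nothing is read from these numbers. Among the members limma on logit values called 0, and Fisher's exact test on summed calls 2 higher. Over all 10185 sites Fisher's exact test called 594 higher and 32 lower, and limma called 1 higher. A minimum of 30 calls gave 1 of 730 members and 295 of 7233 sites higher, and 0 members and 1 site lower. Against H730A, 5 members were lower in F46A and 0 higher, 0.532% of the members against 2.39% lower and 0.00982% higher among all sites. At an unadjusted p under 0.05 there were 125 members lower and 2 higher, again without a count over all sites to set beside them. Fisher's exact test called 60 members lower and 1 higher, a minimum of 30 calls gave 25 lower and 0 higher, and limma on logit values called 0 higher. Over all 10185 sites Fisher's exact test called 1375 lower and 32 higher for this pair. The minimum of 30 calls left 730 members and 7233 sites, of which 692 sites were lower and 4 higher. With any 1 of the 8 libraries left out, and with limma on logit values, no member was called lower. Calls fell among all 10185 sites too, from 243 lower with all libraries to between 0 and 137 with 1 left out, and to 2 with limma. The loss is thus not particular to these 5 members. For the contrasts with wtJ1 the counts are given without reading them. Lower calls were made at 885 members in F46A, which is 94.2% of the members against 94.5% of all tested sites. They were made at 836 members in H730A (89.0%, against 91.4% of all sites) and at 875 in Uhrf1 KO (93.2%, against 94.2% of all sites). In F46A 1 member was called higher (0.106%, against 0.0196% of all sites).

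The sources used here do not say where reads that fit more than 1 LINE1 copy were counted, and values of a single copy, or of the gene around it, are therefore uncertain. Coordinates are those of the files, in mm10. Among members that passed, with at least 30 calls in each library and no overlap between H730A and Uhrf1 KO, the 4 with the largest differences of H730A over Uhrf1 KO were at offset 21. At chr17:39992755 (+ strand, run 39992734 to 39992876) the levels were 8.33, 12, 11.1 and 6.38% in F46A, 21.8, 23.6, 29.4 and 17.4% in H730A, 8.06, 1.39, 7.59 and 8.11% in Uhrf1 KO and 49.4, 48.9, 44.0 and 56.1% in wtJ1. H730A lay 16.4 points above Uhrf1 KO (adjusted p = 0.00367) and F46A 13.8 points below H730A (difference −13.8, adjusted p = 0.0488), with no overlap in either comparison.

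At chr3:91126985 the levels were 7.69, 7.02, 6.52 and 1.64% in F46A, 14.5, 25.8, 24.7 and 16.4% in H730A, 5.48, 10.2, 10.3 and 3.64% in Uhrf1 KO and 38.9, 27.9, 35.6 and 29.2% in wtJ1. H730A was again the mutant closest to wtJ1, 13.2 points above Uhrf1 KO (adjusted p = 0.0118), and F46A differed from H730A by −14.8 points (adjusted p = 0.0366). The other 2 of the 4 were chr1:150233158, with a difference of 14.2 points between H730A and Uhrf1 KO (adjusted p = 0.0190), and chr2:23938209, with 14.0 points (adjusted p = 0.00888). All 4 sites had wtJ1 means well above the 21.9% of their offset, from 32.9% at chr3:91126985 to 58.8% at chr1:150233158. chr1:150233158 had the highest wtJ1 level of any member with at least 30 calls in each library, followed by chr13:62420051 (55.3% ± 5.33) and chr6:18586436 (54.0% ± 1.97, SD, n = 2), both at offset 21.

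Of the members lower in F46A than in H730A, chr12:62548663 at offset 21 (− strand) had 7.17% ± 1.06 in F46A and 18.7% ± 2.41 in H730A (SD, n = 4 each; difference −11.5 points, adjusted p = 0.0471). The remaining pair was chr2:127793533 at offset 21, with 2.9% ± 1.35 in F46A and 8.10% ± 1.79 in H730A (difference −5.38 points, adjusted p = 0.0451), and chr1:18538034 at offset 10, with 3.08% ± 0.965 in F46A and 6.99% ± 1.35 in H730A (difference −3.83 points, adjusted p = 0.0347). The last was named after its values were seen.

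The member called higher in F46A than in wtJ1, named after its values were seen, was chr13:4982513 at offset 17, with 5 of 97 calls in F46A and 0 of 95 in wtJ1, which allows up to 3.16%. It rests on few calls, and without F46A library 4 it was not called.

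In the 6 deepest runs that hold all 3 members the ranking of positions in wtJ1 could be seen within single runs. In the deepest, chr2:127793512-127793654, offset 10 had 3.03% in F46A, 5.20% in H730A, 3.66% in Uhrf1 KO and 16.2% in wtJ1. Offset 17 of that run had 2.02% in F46A, 3.47% in H730A, 2.77% in Uhrf1 KO and 11% in wtJ1, and offset 21 had 2.9% in F46A, 8.10% in H730A, 2.94% in Uhrf1 KO and 20.6% in wtJ1. Of the members of this run, offset 21 passed for H730A over Uhrf1 KO (5.27 points, adjusted p = 0.0105). In the run chr9:100074378-100074520 offset 17 passed (3.20 points, adjusted p = 0.0442). In chr5:95711761-95711903, within the span of Gm7982, offset 10 passed (3.52 points, adjusted p = 0.0433) and offset 21 did not, with 4.01 points (adjusted p = 0.108). Whether positions of a run differ in this was not tested. In chr1:61514854-61514996, chr5:94046773-94046915 (within Gm6351) and chr12:35854299-35854441 no member passed. Across the 6 runs wtJ1 ranged from 11.2 to 21.6% at offset 10, from 5.99 to 14.1% at offset 17 and from 13.5 to 25.9% at offset 21, with offset 17 the lowest of the 3 in each. In all 34 runs of this kind, offset 17 was below offset 21 in 28 runs in F46A, 33 in H730A, 30 in Uhrf1 KO and 34 in wtJ1. Offset 10 was below offset 17 in 15 of these runs in F46A, 5 in H730A, 13 in Uhrf1 KO and 2 in wtJ1. The place of offset 17 as the lowest member was thus less regular in F46A and Uhrf1 KO than in wtJ1.

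Levels varied between copies most in wtJ1 and, among the mutants, in H730A, and at offset 21 the spread exceeded counting error in every genotype. At offset 21 the level of a site, with the 4 libraries of a genotype summed, had an SD over the 455 sites of 2.33 points in F46A, 3.83 in H730A, 2.23 in Uhrf1 KO and 8.46 in wtJ1, against 1.36, 1.62, 1.23 and 2.73 points from counting alone. At offset 17 the SD over the 328 sites was 1.15 in F46A, 1.55 in H730A, 1.07 in Uhrf1 KO and 4.59 in wtJ1, against 0.998, 1.12, 0.973 and 1.99 points from counting. At offset 17 the spread in F46A and Uhrf1 KO was thus close to what the number of reads alone gives. From the lower to the upper quartile the wtJ1 sites lay between 14.3 and 20.4% at offset 10, 8.25 and 13.2% at offset 17 and 17.6 and 27.6% at offset 21. Uhrf1 KO had no methylated call at 2 of 156 sites of offset 10, 4 of 328 of offset 17 and 2 of 455 of offset 21, whereas 47 of 516 first CpGs (9.11%) and 41 of 455 CpGs at offset 26 (9.01%) had none. The first CpG and offset 26 had the lowest mean Uhrf1 KO levels of the 14 offsets.

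**Figure D4:**
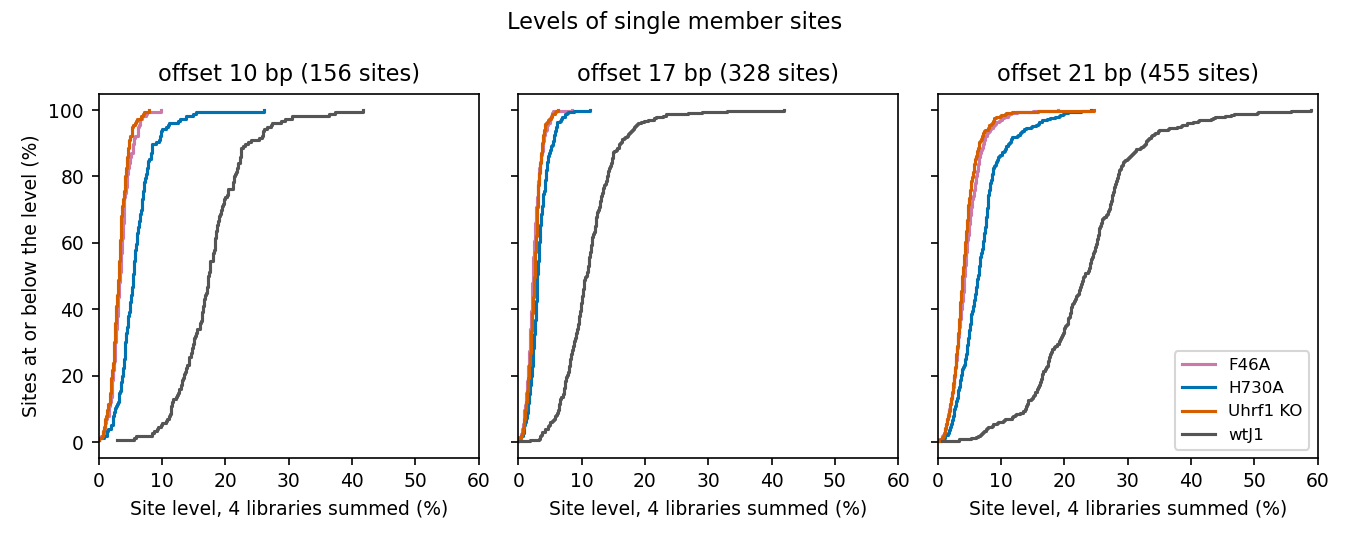
Cumulative share of member sites (percent of sites) at or below a methylation level (percent, 4 libraries of a genotype summed) for offsets 10, 17 and 21 bp, 1 line per genotype. F46A and Uhrf1 KO run close together (median 3.35 and 3.17% at offset 10), H730A is shifted right of them at offsets 10 and 21 (median 5.48% and 6.36%) and less at offset 17 (median 3.02%), and wtJ1 spreads widest at offset 21, from 0.639 to 59.0%.

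Sites in highly methylated copies were themselves high. As a description across runs, which share libraries and depth, the wtJ1 level at a member correlated with the level of the non-member CpGs of the same run with Pearson's r of 0.793 at offset 10 (156 runs), 0.761 at offset 17 (328 runs) and 0.664 at offset 21 (455 runs). In H730A r was 0.694, 0.587 and 0.661 at those offsets, and in F46A 0.391, 0.339 and 0.432. In Uhrf1 KO it was 0.234, 0.337 and 0.299, where the spread at offsets 10 and 17 was close to counting error. Between offsets 17 and 21 of the same 277 runs, r was 0.318 in F46A, 0.606 in H730A, 0.189 in Uhrf1 KO and 0.728 in wtJ1.

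The level of offsets 17 and 21 also went with which other members their run held. Offset 21 had 4.82% ± 1.09 in F46A, 7.59% ± 1.05 in H730A, 4.32% ± 0.145 in Uhrf1 KO (SD, n = 4 each) and 26.5% ± 0.392 in wtJ1 (SD, n = 2) in the 114 runs that held offset 10 but not 17. In the 243 runs that held 17 but not 10 it had 4.17% ± 0.784 in F46A, 6.07% ± 0.608 in H730A, 3.89% ± 0.0786 in Uhrf1 KO and 21.1% ± 0.476 in wtJ1. The runs with offset 10 were the higher ones in each of the 16 libraries, by 0.644 points in F46A, 1.51 in H730A, 0.426 in Uhrf1 KO and 5.44 in wtJ1. The other CpGs of the runs were ordered the opposite way, with 5.50% in F46A, 7.89% in H730A, 4.90% in Uhrf1 KO and 27.1% in wtJ1 in runs with 10 and 21, against 6.08, 8.44, 5.57 and 27.8% in runs with 17 and 21. Where offset 21 was the only member, in 64 runs, it had 3.70% in F46A, 5.30% in H730A, 3.20% in Uhrf1 KO and 18.1% in wtJ1. Offset 17 was likewise lower where it stood alone, in 49 runs, with 1.96% in F46A, 2.44% in H730A, 2.09% in Uhrf1 KO and 7.68% in wtJ1, against 2.46, 3.25, 2.60 and 11.1% beside offset 21. In those 49 runs the other CpGs were lower as well, with 5.37% in F46A, 7.65% in H730A, 4.99% in Uhrf1 KO and 24.8% in wtJ1. In runs with 17 and 21 they had 6.08, 8.44, 5.57 and 27.8%. The runs with 10 and 21 were less clearly apart from those with all 3 members. At offset 10 they were higher by 0.193 points ± 0.577 in F46A, 1.36 ± 0.411 in H730A and 0.251 ± 0.494 in Uhrf1 KO (SD, n = 4 each), and by 1.98 ± 0.133 in wtJ1 (SD, n = 2), with 3 of 4 libraries above 0 in F46A and in Uhrf1 KO. At offset 21 the difference was 0.325 ± 0.192 points in F46A, 1.2 ± 0.561 in H730A, 0.195 ± 0.529 in Uhrf1 KO, where 3 of 4 libraries were above 0, and 1.83 ± 0.563 in wtJ1. Which members a run holds was not set by the study, so these are descriptions of different copies and were not tested.

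**Figure D5:**
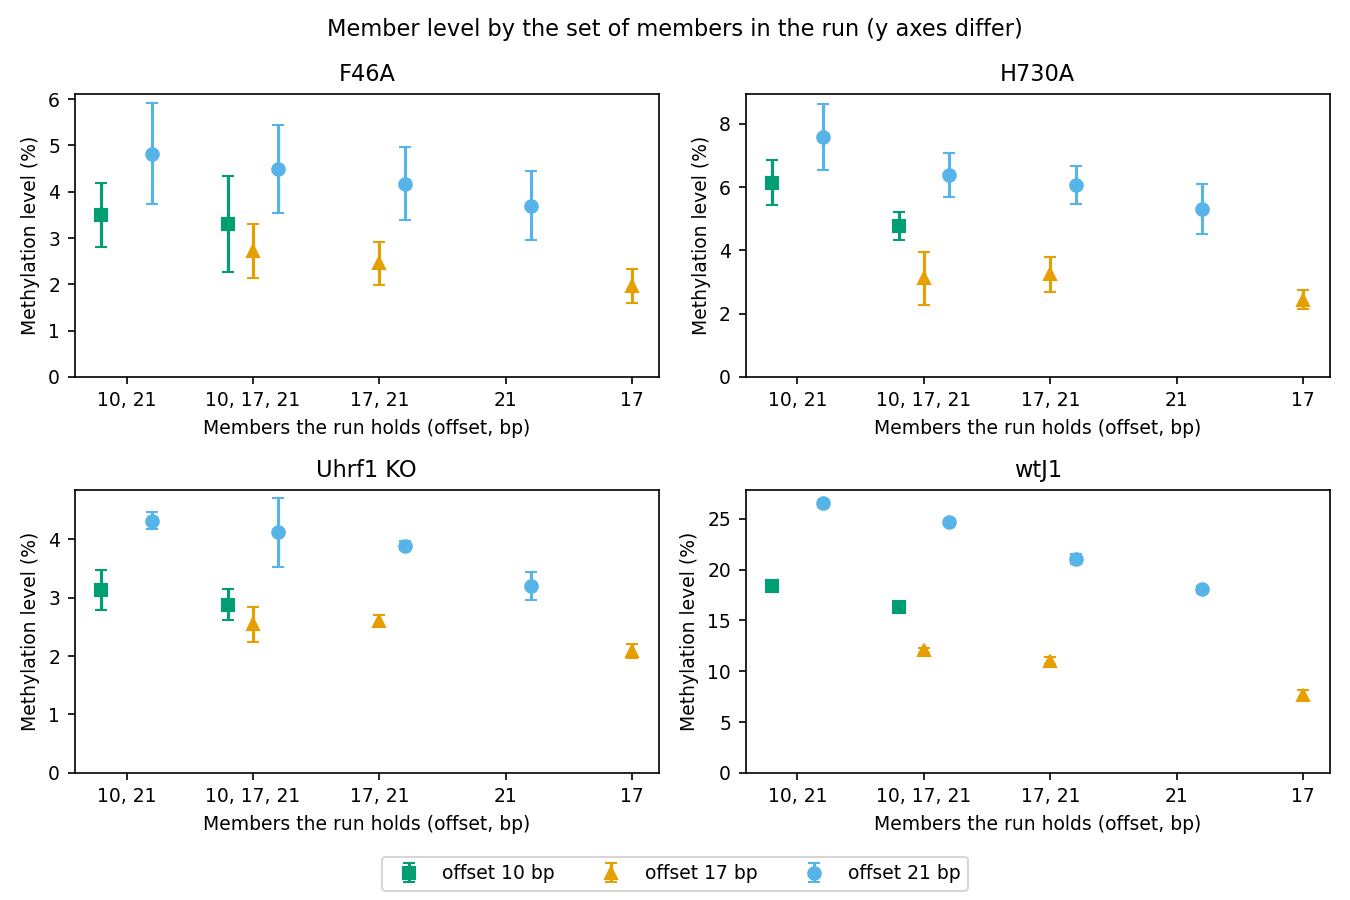
Methylation level (percent) at offsets 10, 17 and 21 bp in runs grouped by the members they hold, in 1 panel per genotype with its own y axis from 0, as mean and 1 SD over libraries (n = 4, for wtJ1 n = 2). In each panel offset 21 is highest where the run holds 10 and 21 and lowest where 21 stands alone (26.5 and 18.1% in wtJ1), and offset 17 is lowest where it stands alone.

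The members lay on 20 chromosomes, 281 of their runs on the + strand and 231 on the − strand, 71 on the X chromosome and 136 within an annotated gene span. By strand, offset 21 had 4.36% in F46A, 6.43% in H730A and 3.94% in Uhrf1 KO on the − strand, against 4.17, 6.15 and 3.87% on the + strand. On the − strand wtJ1 had 23.1% ± 0.232 at offset 21, against 21% ± 0.241 on the + strand (SD, n = 2 each). On the X chromosome offset 21 had 4.08% ± 0.733 in F46A, 6.04% ± 0.514 in H730A, 3.86% ± 0.178 in Uhrf1 KO and 21.3% ± 0.415 in wtJ1, within 1 point of the autosomes (4.27, 6.30, 3.90 and 22%). Inside genes offset 21 had 4.15% in F46A, 5.96% in H730A, 3.85% in Uhrf1 KO and 22% in wtJ1, against 4.29, 6.4, 3.92 and 21.8% outside. Members fell in 93 protein-coding genes by span, exons and introns not being annotated here. The 3 with the most member calls were Lrp1b, which encodes a receptor of the LDL receptor family, Nol4, which encodes a nucleolar protein, and F8, which encodes coagulation factor VIII. In Lrp1b the 4 members together had 3.10% ± 0.420 in F46A, 4.07% ± 0.596 in H730A and 2.93% ± 0.123 in Uhrf1 KO (SD, n = 4 each), and 14.3% ± 0.102 in wtJ1 (SD, n = 2). The 5 members in Nol4 had 3.10% in F46A, 3.41% in H730A, 2.91% in Uhrf1 KO and 9.99% in wtJ1, and the 4 in F8 had 4.0% in F46A, 6.58% in H730A, 3.94% in Uhrf1 KO and 20.1% in wtJ1. The means followed the order of the members as a whole in all 3 genes.

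Both limits of the selection were looked at once. Members with 10 to 12 calls in their least covered library numbered 11, 4 and 14 at offsets 10, 17 and 21 and had 3.44, 3.42 and 5.58% in F46A, 6.43, 3.94 and 7.47% in H730A, 3.29, 1.62 and 5.15% in Uhrf1 KO and 19.6, 11.8 and 27% in wtJ1. Just outside the chosen length, 9 runs of 141 bp and 3 of 143 bp were left out. Offset 17 of those 141 bp long (4 sites) had 1.85% in F46A, 2.71% in H730A, 1.80% in Uhrf1 KO and 7.73% in wtJ1, and of those 143 bp long (3 sites) 1.43% in F46A, 3.75% in H730A, 1.26% in Uhrf1 KO and 11.5% in wtJ1. At offset 21 wtJ1 had 23.3% in runs of 141 bp (7 sites) and 20.2% in runs of 143 bp (2 sites), next to 21.9% in the members.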

How the data were processed

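Genomic DNA was bisulfite converted and a LINE1 amplicon produced by PCR and sequenced, per the labels' protocols. The files deposited by the authors give, per CpG and library, the count of C calls and of C or T calls, and their ratio as a fraction from 0 to 1, per the file headers. The fraction was used only to check the counts. The submitters' processing notes list Trim Galore 0.3.1, BSMAP 2.90 and methylKit as tools and mm10 as the build, with no role for each. Only CpG context is listed, so conversion could not be estimated, and incomplete conversion would raise all levels.

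Groups came from the sample titles. Levels are summed C over summed calls per library and offset. Offset means were compared by exact two-sided permutation tests, adjusted over 14 offsets (Benjamini-Hochberg), and 95% intervals come from inverting them. The smallest p is 0.0286 for 4 against 4 and 0.0571 for 3 against 4. At the smallest p the adjusted value depends on how many of the 14 offsets reach it. Sites were compared by a quasi-binomial model on the counts (Pearson dispersion moderated by limma 3.58.1's squeezeVar, not below 1), adjusted over 10185 sites at 0.05 and tested on simulated data. The median dispersion was 1.01 over members for F46A against H730A and 1 for the other comparisons, so p-values of many sites reflect counting error. The 2 wild-type pairs with no chi-square difference past 0.05 were averaged in means and SDs, while Uhrf1 KO libraries 2 and 3, which met the same criterion, were averaged only as an alternative. Host genes came from RefSeq (GRCm38.p6) by span. Python 3.11.15 and R 4.3.3 were used.

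Members, lists and tests were chosen with earlier results of these data known. Named sites are those of the 6 deepest runs with all 3 members; up to 4 per direction and mutant comparison past 0.05 with at least 30 calls per library and no overlap, by size; the 3 highest in wtJ1; and the 3 genes with most calls; 1 site is not reported here. The median wtJ1 sites at each offset are given in the closing section. No genome was used, so no sequence is shown.

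The alternatives were minimums of 30 and 100 calls, unweighted means, single strands, leaving out the 10 deepest runs, runs with all 3 members, limma on logit values (offset 0.5), Fisher's exact test, a replicate block, each replicate left out, and merged near-alike libraries.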

Additional observations from a re-analysis of the deposited data

Results flagged for a closer look

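Of 24 groups of 4 libraries examined, 2 held a library that stood far from the other 3, where chance gives about 1 in 20. F46A library 3 was the lowest at offset 10, with 2.21% against 3.65, 3.78 and 3.86% in the other F46A libraries. Its level over all 939 members was also the lowest of the group. wtJ1 library 2 had the highest relative level at offset 21, 0.845 against 0.827, 0.828 and 0.83 in the other wtJ1 libraries, while its methylation level of 21.8% lay among theirs.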

How the results depend on the processing

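Correlations of same-numbered libraries over runs were weak, between −0.0986 and 0.134, and the replicate numbers were not taken to pair the samples. Every library matched its own number best only for H730A with wtJ1, where the correlations were 0.0501 to 0.134. With the replicate block limma on logit levels passed H730A minus Uhrf1 KO at offset 17 (0.303) and F46A minus H730A at offset 10 (−0.800), as it did without the block, where offset 21 also passed (−0.608). The quasi-binomial model with the replicate block called 0 members in H730A against Uhrf1 KO (either direction), 0 lower in F46A against H730A and 0 higher in F46A against wtJ1. It also called 0 of all 10185 sites in these comparisons and directions, so the lost calls are no result about the members.

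With Uhrf1 KO libraries 2 and 3 averaged, an alternative chosen after seeing the data, H730A minus Uhrf1 KO was 2.65 and 2.38 points at offsets 10 and 21 and 0.131, −0.0880 and 0.0442 in relative level at offsets 10, 17 and 21, none past the threshold. F46A minus Uhrf1 KO in relative level was then 0.0102 at offset 10 and −0.0591 at offset 17. With those libraries summed 0 members were called lower in H730A than in Uhrf1 KO, against 72 of all 10185 sites. Fisher's exact test on summed calls, which holds no spread between samples, called 133 members higher and 0 lower in H730A against Uhrf1 KO, 2 higher in F46A against Uhrf1 KO, 1 higher and 60 lower in F46A against H730A and 0 higher in F46A against wtJ1. Over all 10185 sites it called 2904 higher and 207 lower in H730A against Uhrf1 KO, and 594 higher and 32 lower in F46A against Uhrf1 KO. For F46A against H730A it called 32 sites higher and 1375 lower, and for F46A against wtJ1 1 site higher. A minimum of 30 calls, with fewer sites tested, gave 100 higher in H730A and 1 higher in F46A against Uhrf1 KO, 25 lower in F46A against H730A and 0 higher in F46A against wtJ1. Over the 7233 sites then tested the counts were 2269, 295, 692 and 0 in that order. In the opposite direction the first 3 comparisons gave 140, 1 and 4 sites. limma on logit values called 0 members lower in F46A against H730A, and 2 of all 10185 sites.

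In absolute level, H730A minus Uhrf1 KO at offset 17 passed with sites weighted equally (0.723 points) and on the + strand (0.613 points), F46A minus H730A passed with equal weights at offsets 10 and 21 (−2.46 and −2.34 points), and F46A minus Uhrf1 KO at offset 17 turned to 0.173 points in runs with all 3 members. In relative level, calls of H730A minus Uhrf1 KO were lost with equal weights at offsets 10 and 21 (0.110 and 0.0281), on the + strand at offset 10 (0.0694), on the − strand at offset 21 (0.0522) and in runs with all 3 members at offsets 17 and 21 (−0.0843 and 0.0627). The call of F46A minus Uhrf1 KO at offset 17 was lost at a minimum of 100 calls (−0.0533), with equal weights (−0.0568), on the − strand (−0.0459), without the 10 deepest runs (−0.0577) and in runs with all 3 members (−0.0151). Its difference near 0 at offset 10 turned to 0.00616 and 0.0145 at minimums of 30 and 100 calls, 0.0460 on the − strand, 0.00467 without the 10 deepest runs and 0.0111 in runs with all 3 members, and at offset 21 to 0.00253, 0.00209 and 0.00533 at minimums of 30 and 100 calls and on the − strand. The cause of these changes was not tested.

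Differences from wtJ1 kept their sign. At offsets 10, 17 and 21, Uhrf1 KO minus wtJ1 was −13.6, −7.56 and −16.4 points at a minimum of 100 calls, −14.6, −8.61 and −19.0 with equal weights, −15.4, −8.54 and −19.2 on the − strand and −13.5, −9.53 and −20.6 in runs with all 3 members, and −13.3 and −17.1 at offsets 10 and 21 on the + strand. H730A minus wtJ1 was −10.9 and −14.4 points at offsets 10 and 21 at a minimum of 100 calls, −11.0 and −14.8 on the + strand, −12.4 and −16.7 on the − strand, −16.4 at offset 21 with equal weights, and −8.95 and −18.3 at offsets 17 and 21 in runs with all 3 members. F46A minus wtJ1 was −7.65 and −16.1 points at offsets 17 and 21 at a minimum of 100 calls, −18.7 at offset 21 with equal weights, −14.8 and −18.7 at offsets 10 and 21 on the − strand, and −13.1, −9.35 and −20.2 in runs with all 3 members.

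With 1 replicate left out, 3 against 4 libraries cannot go below an exact p of 0.0571, so no call could hold. H730A minus Uhrf1 KO then ranged over 2.33 to 2.83, 0.365 to 0.785 and 2.10 to 2.66 points at offsets 10, 17 and 21, and over 0.103 to 0.136, −0.0968 to −0.0804 and 0.0353 to 0.0511 in relative level. F46A minus Uhrf1 KO ranged over 0.184 to 0.735, −0.296 to 0.0131 and 0.0978 to 0.746 points at those offsets, at offset 17 above 0 without F46A library 2, and in relative level over −0.0299 to 0.0309, −0.0722 to −0.0389 and −0.0298 to 0.0165. The members called higher in H730A than in Uhrf1 KO ranged from 32, without H730A library 3, to 53, those lower from 0 to 1, those lower in F46A than in H730A were 0 throughout, and those higher in F46A than in wtJ1 ranged from 0 to 1. In the fits with 32 and 53 members higher in H730A, 1575 and 1954 of all 10185 sites were called higher. For F46A against H730A these fits called between 0 and 137 of all sites lower.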

Other observations

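The sites with the median wtJ1 level among those with at least 30 calls in each library show what a typical member looked like. At offset 10 this was chr7:108026747, with 3.82% ± 2.13 in F46A, 4.62% ± 2.20 in H730A and 3.26% ± 1.16 in Uhrf1 KO (SD, n = 4 each), and 17.1% ± 4.03 in wtJ1 (SD, n = 2). At offset 17 it was chr5:94046898 within Gm6351, with 3.94% ± 1.98 in F46A, 2.47% ± 1.68 in H730A, 1.99% ± 1.03 in Uhrf1 KO and 10.6% ± 0.250 in wtJ1. At offset 21 it was chr7:77334814, with 4.37% ± 1.02 in F46A, 6.53% ± 0.982 in H730A, 3.50% ± 1.17 in Uhrf1 KO and 22.8% ± 0.0108 in wtJ1. Only the last, with at least 406 calls per library, passed for H730A over Uhrf1 KO (3.01 points, adjusted p = 0.0162, the per-site model with limma's dispersion).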
